A study of Mus musculus with 6 samples.

Results

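The 10 genes described here, Sertad4, Iws1, Ppp2r5d, Psma5, Cd109, Senp7, Syne3, Taldo1, Hsd17b11 and Amz2, were selected on their read counts, because fewer reads of methylated DNA were listed near their transcription start sites (TSS) in neuronal libraries than in a fibroblast library, at several or all of the times sampled. They are 10 of 11454 genes with an entry in any of the promoter tables, and 9 of them belong to the 1033 genes that the authors listed below fibroblasts in all 5 comparisons. The low read counts against fibroblasts are therefore how the genes were found. They are given as a description, without a test, and nothing is supported with them.

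The study followed DNA methylation while mouse fibroblasts were turned into neurons. The 6 libraries, 1 per group, came from MEF-derived induced neurons (iNs) sampled at 1, 3, 5 and 7 dpi, from hippocampus-derived primary neurons of 1-day-old pups, and from mouse embryonic fibroblasts (MEF) of E13.5 embryos. All came from the ICR strain with 3-5 passages given for every library, the neuronal cells were kept in neuronal medium and the fibroblasts in fibroblast medium, and 1 input library served all 6. The labels call primary neurons the positive control and MEF the negative control; they do not spell out dpi, and the factors that made the induced neurons, the share of cells converted and any pooling of animals are not stated in the labels. Because the measurements are of DNA, the labelled cell types could not be checked against marker gene expression. With 1 library per group there was no replicate check of any difference below, and all 5 comparisons share the single MEF library, so they are not independent of each other.

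Methylated DNA immunoprecipitation sequencing (MeDIP-seq) pulls down DNA fragments with an antibody against 5-methylcytosine and counts the sequenced fragments, so the reads in a window rise with both the methylation of the window and the number of its methylated CpG sites. In mammals the methyl group sits mostly on the cytosine of a CpG pair. CpG-rich promoters (CpG islands) are usually free of it in most tissues, while the flanks of islands and the bodies of transcribed genes are often methylated. The deposited promoter tables hold only windows with centres at most 2 kb from a TSS that were listed lower or higher than MEF; an unlisted window has no value here. A lower count cannot tell fewer cells with a methylated window from less methylation per cell.

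The genes serve different functions. Sertad4 encodes a SERTA domain protein of a family of transcriptional coregulators, and Iws1 a factor that travels with elongating RNA polymerase II. Ppp2r5d encodes a B56 regulatory subunit that directs protein phosphatase 2A to its substrates. Psma5 encodes an alpha subunit of the 20S proteasome core, Senp7 a protease that trims SUMO chains from proteins, and Amz2 a zinc metalloprotease of the archaelysin family. Cd109 is a GPI-anchored surface protein that binds TGF-beta, and Syne3 encodes nesprin-3, an outer nuclear membrane protein that ties the nucleus to intermediate filaments. Taldo1 encodes transaldolase of the pentose phosphate pathway, and Hsd17b11 a dehydrogenase found on lipid droplets.

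Sequence at the starts of these genes was taken from RefSeq (GRCm38.p6, the assembly released as mm10), as 300-base windows that run from 250 bases before to 50 bases after a start. Windows were found for 8 of the 10 genes. The letters searched were CG, which read the same on both strands and cannot overlap themselves; CG occurred in 94.6% of all 32851 windows. The 5 windows printed below span the range of CpG content among the genes and include the starts nearest to a listed region. They are written 5′ to 3′ along the gene, with each CG in capitals.
Psma5 chr3:108256676-108256975 (+ strand): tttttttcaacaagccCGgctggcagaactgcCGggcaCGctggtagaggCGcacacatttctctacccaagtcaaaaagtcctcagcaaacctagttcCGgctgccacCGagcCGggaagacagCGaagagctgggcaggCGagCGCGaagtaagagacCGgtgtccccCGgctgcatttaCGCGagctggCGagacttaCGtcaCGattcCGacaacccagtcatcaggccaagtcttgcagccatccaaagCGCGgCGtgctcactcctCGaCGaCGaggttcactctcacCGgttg
Senp7 chr16:56075154-56075453 (+ strand): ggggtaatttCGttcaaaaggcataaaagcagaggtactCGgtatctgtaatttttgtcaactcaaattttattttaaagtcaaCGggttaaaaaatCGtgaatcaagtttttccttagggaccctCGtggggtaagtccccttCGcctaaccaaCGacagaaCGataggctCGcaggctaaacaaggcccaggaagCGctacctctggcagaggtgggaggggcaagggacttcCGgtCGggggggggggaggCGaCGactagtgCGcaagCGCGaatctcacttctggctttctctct
Taldo1 chr7:141391910-141392209 (+ strand): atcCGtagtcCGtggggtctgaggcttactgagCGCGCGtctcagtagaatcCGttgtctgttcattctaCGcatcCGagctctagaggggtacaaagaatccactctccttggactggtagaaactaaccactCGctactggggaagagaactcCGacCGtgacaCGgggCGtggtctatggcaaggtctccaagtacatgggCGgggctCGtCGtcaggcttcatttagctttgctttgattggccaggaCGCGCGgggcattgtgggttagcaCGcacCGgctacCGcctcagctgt
Sertad4 chr1:192851698-192851997 (- strand): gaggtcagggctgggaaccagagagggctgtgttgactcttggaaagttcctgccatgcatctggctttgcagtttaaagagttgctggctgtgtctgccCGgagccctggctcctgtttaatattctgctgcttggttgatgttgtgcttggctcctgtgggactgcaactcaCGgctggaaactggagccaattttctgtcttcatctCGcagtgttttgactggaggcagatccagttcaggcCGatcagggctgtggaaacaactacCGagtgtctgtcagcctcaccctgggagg
Syne3 chr12:104998628-104998927 (- strand): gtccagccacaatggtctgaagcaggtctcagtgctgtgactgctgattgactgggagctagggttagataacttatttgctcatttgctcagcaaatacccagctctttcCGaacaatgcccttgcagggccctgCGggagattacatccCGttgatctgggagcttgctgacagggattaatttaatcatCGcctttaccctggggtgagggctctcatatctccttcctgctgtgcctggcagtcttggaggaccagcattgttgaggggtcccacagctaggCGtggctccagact

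Most of these starts were CpG-rich. The ratio of observed to expected CpG was 1.00 for Psma5 (26 CG), 0.92 for Taldo1 (22 CG), 0.90 for Senp7 (17 CG), 0.85 for Amz2 (23 CG), 0.81 for Ppp2r5d (22 CG) and 0.74 for Hsd17b11 (18 CG). Syne3 and Sertad4 had 5 CG each and ratios of 0.24 and 0.23. A second RefSeq start of Sertad4 lies 4005 bp away, and its window held 34 CG at a ratio of 1.14. Over the 8 windows nearest to the TSS of the tables the median ratio was 0.83, against 0.38 over all windows, and 6 of 8 (75.0%) exceeded 0.6, against 35.8% of all windows. The 300-base windows and the listed regions do not coincide: none of the 8 nearest windows touched a region lower than MEF, and the gaps ran from 93 bp at Syne3 and 189 bp at Taldo1 to 1565 bp at Amz2. The CpG content of the listed regions themselves was not analysed here.

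Each gene had a main region, the one with the most MEF reads, and this region held few reads outside MEF, as did the lower regions of most genes. All 10 genes were listed lower in 1 dpi iNs, where 10.6% of 26216 RefSeq genes were. All 10 were also listed lower in 3 dpi iNs (13.2% of all genes), in 5 dpi iNs (10.7%) and in 7 dpi iNs (8.87%), and 9 of 10 in primary neurons (15.3%), where Amz2 had no lower entry. These shares give the background only; since the genes were chosen for such entries, nothing is read from the difference. Of the 49 main regions, 22 had no read in the neuronal library, 25 had 1 to 3 reads and 2 had more, both at Ppp2r5d. Over all regions listed lower, the library had no read in 80.8% in 1 dpi iNs, 91.1% in 3 dpi iNs, 83.4% in 5 dpi iNs, 97.2% in 7 dpi iNs and 95.2% in primary neurons, with a median of 0 reads in each. Windows without a neuronal read were thus common throughout these lists and are not read as a trait of the 10 genes. Of all listed regions 99.6% have an authors' p of at most 0.0001. A region with few MEF reads could therefore hardly be listed unless the neuronal library had no read. The shares follow in part from this cut-off and do not show how the 10 genes differ from others. For genes listed lower in all 5 comparisons, neuronal reads were also summed over the comparisons. The median sum was 5 for the 9 genes of this set and 1 for all 1033. The same cut-off bears on these sums, so nothing is read from their difference. The median over the genes was 1 read in 1 dpi iNs, 0 in 3 dpi iNs, 1.5 in 5 dpi iNs, 0 in 7 dpi iNs and 0 in primary neurons. The MEF library had 27 to 39 reads in the regions of the 1 dpi comparison, 20 to 34 for 3 dpi, 27 to 39 for 5 dpi, 24 to 39 for 7 dpi and 27 to 39 for primary neurons. Over all regions listed lower, the median was 13 MEF reads in each comparison except that of 7 dpi, where it was 15.

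**Figure D1:**
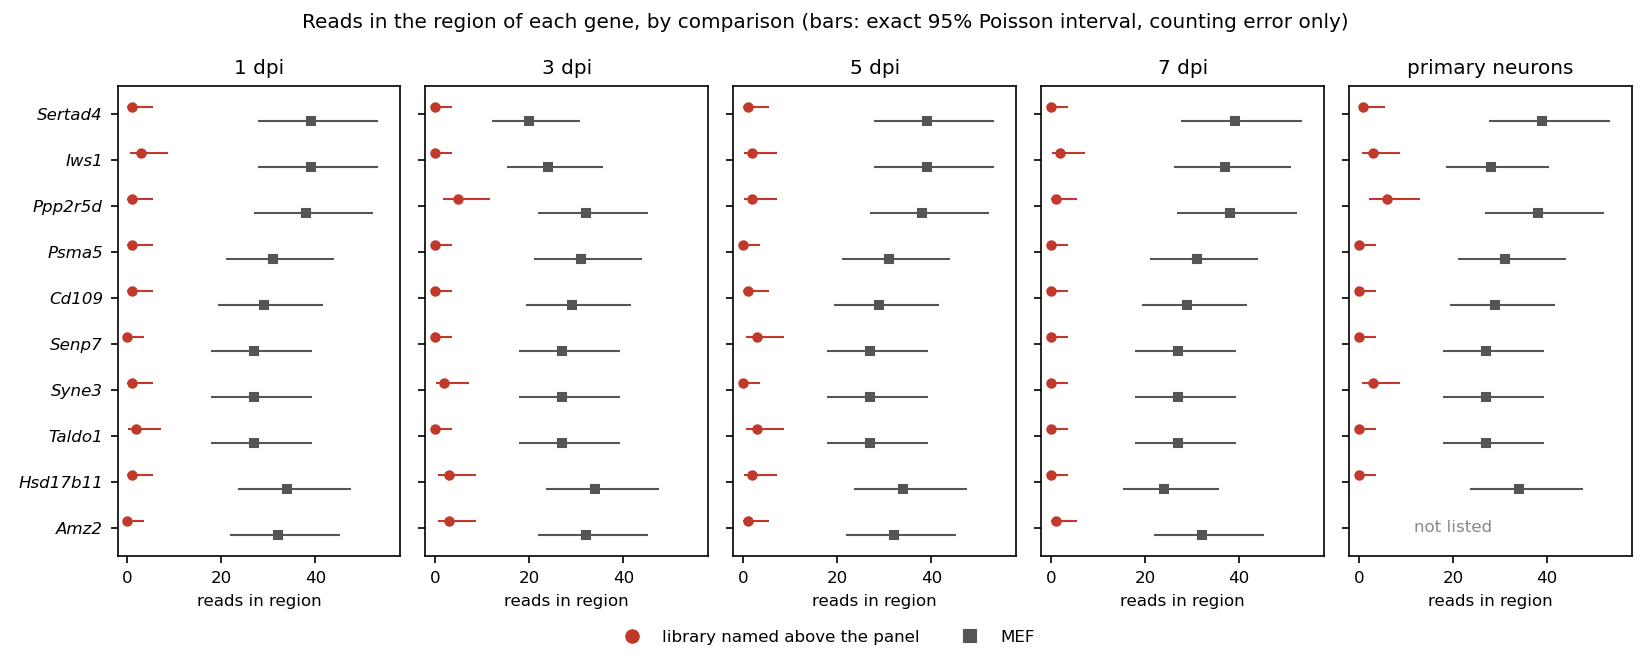
Reads in the main region of each gene (horizontal axis, whole reads) in the library named above each panel (red circles) and in MEF (grey squares); bars are exact 95% Poisson intervals, which cover counting error alone. Every red point lies at 6 reads or fewer, every grey point at 20 reads or more, and Amz2 has no entry for primary neurons.

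Reads are whole reads throughout. The deposited values for 7 dpi iNs and for primary neurons are scaled, and folds use the scaled values. A fold is MEF over the other library, written as fold lower, with an exact (Clopper-Pearson) 95% interval for counting error. Where a library had no reads, it was set to a floor of 3 reads, the one-sided 95% limit of a count of 0, and the fold is given as at least that size. This bound leaves out the counting error of the other library. The two-sided limit, drawn in the plot of reads, is 3.69 reads, and with the error of both libraries the exact intervals of the 22 main regions at 0 reads begin lower, at 4.51-fold to 9.35-fold, where the floor gives 6-fold to 12.1-fold. Folds that rest on 1 read are loose: with 1 read added to both libraries, the 12 such folds came to 12.4 to 21.4 in place of 24.0 to 41.8. Library totals were not analysed here, so the depth behind the counts is unknown, and reads may include copies of the same fragment.

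Among the 2 transcription genes, Sertad4 (gene ID 214791) had its region upstream of the TSS, at chr1:192853181-192853660 in iNs of 5 and 7 dpi and in primary neurons. It held 1 read in 1 dpi iNs, 0 reads in 3 dpi iNs, 1 read in 5 dpi iNs, 0 reads in 7 dpi iNs and 1 read in primary neurons, against 39 MEF reads in each comparison but that of 3 dpi. At 3 dpi the authors split it into 2 regions of 220 bp, 20 bp apart, with 0 reads in the 3 dpi library against 20 and 19 MEF reads. No neuronal library came near MEF at this window. The signal was 39.0-fold lower in iNs of 1 and 5 dpi (interval 6.60 to 1579 each) and 41.8-fold lower in primary neurons (7.07 to 1692), and at least 9.75-fold lower in 7 dpi iNs and 6.67-fold lower in 3 dpi iNs, there in the region with 20 MEF reads. In the RefSeq annotation the region lies inside Sertad4, between its 2 starts.

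Iws1 (gene ID 73473, on chromosome 18) had its region downstream of the TSS, with its centre 1567 to 1767 bp into the gene. It held 3, 0, 2 and 2 reads in iNs of 1, 3, 5 and 7 dpi and 3 reads in primary neurons, against 39, 24, 39, 37 and 28 MEF reads in windows of 460, 320, 460, 380 and 200 bp. These windows were the least alike of any of the 10 genes, sharing a core of 60 bp. The folds were 13 (4.13 to 65.8) in 1 dpi iNs, at least 8 in 3 dpi iNs, 19.5 (5.05 to 167) in 5 dpi iNs, 13.9 (3.58 to 119) in 7 dpi iNs and 10 (3.09 to 51.4) in primary neurons. The window of primary neurons was the densest in MEF reads of all main regions, at 14.0 per 100 bp.

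The phosphatase subunit gene Ppp2r5d (gene ID 21770) had its region upstream of the TSS at chr17:46706121-46706500 in iNs of 5 and 7 dpi and in primary neurons. Within those same borders 2 reads were counted in 5 dpi iNs, 1 read in 7 dpi iNs and 6 reads in primary neurons, against 38 MEF reads. At 1 dpi a window of 400 bp held 1 read against 38, and in 3 dpi iNs a window of 380 bp held 5 reads against 32. Ppp2r5d was the gene with the most reads outside MEF, 15 over its 5 windows. Its folds were 38.0 (6.42 to 1540) in 1 dpi iNs, 6.40 (2.48 to 21.0) in 3 dpi iNs, 19.0 (4.91 to 163) in 5 dpi iNs, 28.5 (4.81 to 1155) in 7 dpi iNs and 6.79 (2.85 to 19.6) in primary neurons. The 6 reads of primary neurons carry a Poisson interval of 2.20 to 13.1 and the 1 read of 7 dpi an interval of 0.025 to 5.57. These intervals overlap, and no difference among the neuronal libraries was tested at this window. RefSeq places the region in a long noncoding RNA gene, Gm52314, rather than in Ppp2r5d.

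Among the genes of protein turnover, Psma5 (gene ID 26442) was the emptiest, with 1 read in all 5 neuronal windows together. Its region, downstream of the TSS at chr3:108257581-108258000 in iNs of 1, 3 and 5 dpi, held 1, 0 and 0 reads against 31 MEF reads. Windows of 360 bp held 0 reads in 7 dpi iNs and 0 reads in primary neurons, each against 31 MEF reads. The signal was 31.0-fold lower in 1 dpi iNs (5.17 to 1263), and at least 10.3-fold lower in iNs of 3 and 5 dpi, 7.75-fold in 7 dpi iNs and 11.1-fold in primary neurons. The region lies within Psma5 itself, centred 835 to 895 bp past the TSS and therefore past the CpG-rich window printed above.

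Senp7 (gene ID 66315), the SUMO protease gene, had its region within the gene at chr16:56076261-56076560 in 5 dpi iNs and in primary neurons, where 3 reads and 0 reads were counted against 27 MEF reads. No read was counted in iNs of 1, 3 or 7 dpi in windows of 360, 440 and 340 bp, each against 27 MEF reads. The fold was 9 (2.77 to 46.4) in 5 dpi iNs and at least 9 in iNs of 1 and 3 dpi, 6.75 in 7 dpi iNs and 9.64 in primary neurons. Amz2 (gene ID 13929), the metalloprotease gene, had 0, 3, 1 and 1 reads in iNs of 1, 3, 5 and 7 dpi against 32 MEF reads each time, in windows of 380 to 400 bp around chr11:109427561-109427960. The fold at Amz2 was at least 10.7 in 1 dpi iNs, 10.7 (3.34 to 54.4) in 3 dpi iNs, 32.0 (5.35 to 1303) in 5 dpi iNs and 24.0 (4.01 to 977) in 7 dpi iNs. Its read count in primary neurons is unknown, since the window was not listed there.

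The 2 genes of the cell surface and nuclear envelope lay on opposite sides of their starts. Cd109 (gene ID 235505) had 1, 0, 1 and 0 reads in iNs of 1, 3, 5 and 7 dpi and 0 reads in primary neurons, against 29 MEF reads each time. Its windows of 300 to 420 bp overlapped at chr9:78617121-78617380, inside the gene. The Cd109 signal was 29.0-fold lower in 1 dpi iNs and in 5 dpi iNs (4.81 to 1184 each), and at least 9.67-fold lower in 3 dpi iNs, 7.25-fold in 7 dpi iNs and 10.4-fold in primary neurons. Syne3 (gene ID 212073) gave the best matched series, with the same borders, chr12:104999441-104999820, at all 4 times of the induced neurons. There 1, 2, 0 and 0 reads were counted in iNs of 1, 3, 5 and 7 dpi, and 3 reads in the 360 bp window of primary neurons, against 27 MEF reads each time. The folds at Syne3 were 27.0 (4.45 to 1105) in 1 dpi iNs, a ratio of 27 to 2 reads (3.39 to 117) in 3 dpi iNs, at least 9 in 5 dpi iNs, at least 6.75 in 7 dpi iNs and 9.64 (2.97 to 49.7) in primary neurons. The region is upstream of the TSS given in the tables, yet inside the RefSeq gene.

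Both metabolic genes had upstream regions that fall in no RefSeq gene. Taldo1 (gene ID 21351) had 2, 3 and 0 reads in iNs of 1, 5 and 7 dpi within chr7:141391241-141391620, against 27 MEF reads. At 3 dpi and in primary neurons the window reached 100 bp further towards the gene, to a length of 480 bp, and held 0 reads against 27. The Taldo1 ratio of 27 to 2 reads in 1 dpi iNs had an interval of 3.39 to 117, and the fold was 9 (2.77 to 46.4) in 5 dpi iNs, and at least 9 in 3 dpi iNs, 6.75 in 7 dpi iNs and 9.64 in primary neurons. Hsd17b11 (gene ID 114664) had 1, 3 and 2 reads in iNs of 1, 3 and 5 dpi within chr5:104023301-104023680, against 34 MEF reads. At 7 dpi a window of 280 bp held 0 reads against 24, and in primary neurons one of 460 bp held 0 reads against 34. The signal at Hsd17b11 was 34.0-fold lower in 1 dpi iNs (5.70 to 1382), 11.3-fold in 3 dpi iNs (3.56 to 57.7), 17.0-fold in 5 dpi iNs (4.36 to 146), and at least 6-fold lower in 7 dpi iNs and 12.1-fold in primary neurons.

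In every gene the counting intervals of the neuronal libraries all overlapped one another. Overlap does not show that levels were equal, and window lengths differed in most genes while library depth is unknown. With 1 library per group, no order among 1, 3, 5 and 7 dpi and primary neurons was tested or is read from these reads. In the authors' deposited table the p-values of the 49 regions ran from 2.9e-12 to 2.7e-06; they compare the reads of 2 libraries, not the conditions.

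The same stretch of DNA recurred from comparison to comparison. In 10 of 10 genes the main regions of all comparisons with an entry shared a core, from 60 bp at Iws1 to 380 bp at Taldo1. With an overlap of at least 50% of both regions required, 8 genes remained. A shared core was also found for 87.0% of the 1033 genes listed lower in all 5 comparisons. The cores lay on 10 different chromosomes, 5 upstream of the TSS and 5 downstream, and 7 lay inside the gene named in the tables. Over all genes, 48.3% of lower windows were centred upstream, with identical borders counted once. The share over all genes of windows inside the named gene was not computed. With windows of identical borders counted once, the 49 main regions are 32 windows, all centred more than 500 bp from the TSS, at 679 to 1803 bp (median 1546 bp). Over all genes, the 16721 lower regions are 11732 such windows, of which 80.9% were centred more than 500 bp away, at a median of 1100 bp. That share counts every lower region, not main regions alone. A further lower region of Syne3, outside its main one, was centred 443 bp before the TSS. Windows of 1 gene overlap and are not independent.

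**Figure D2:**
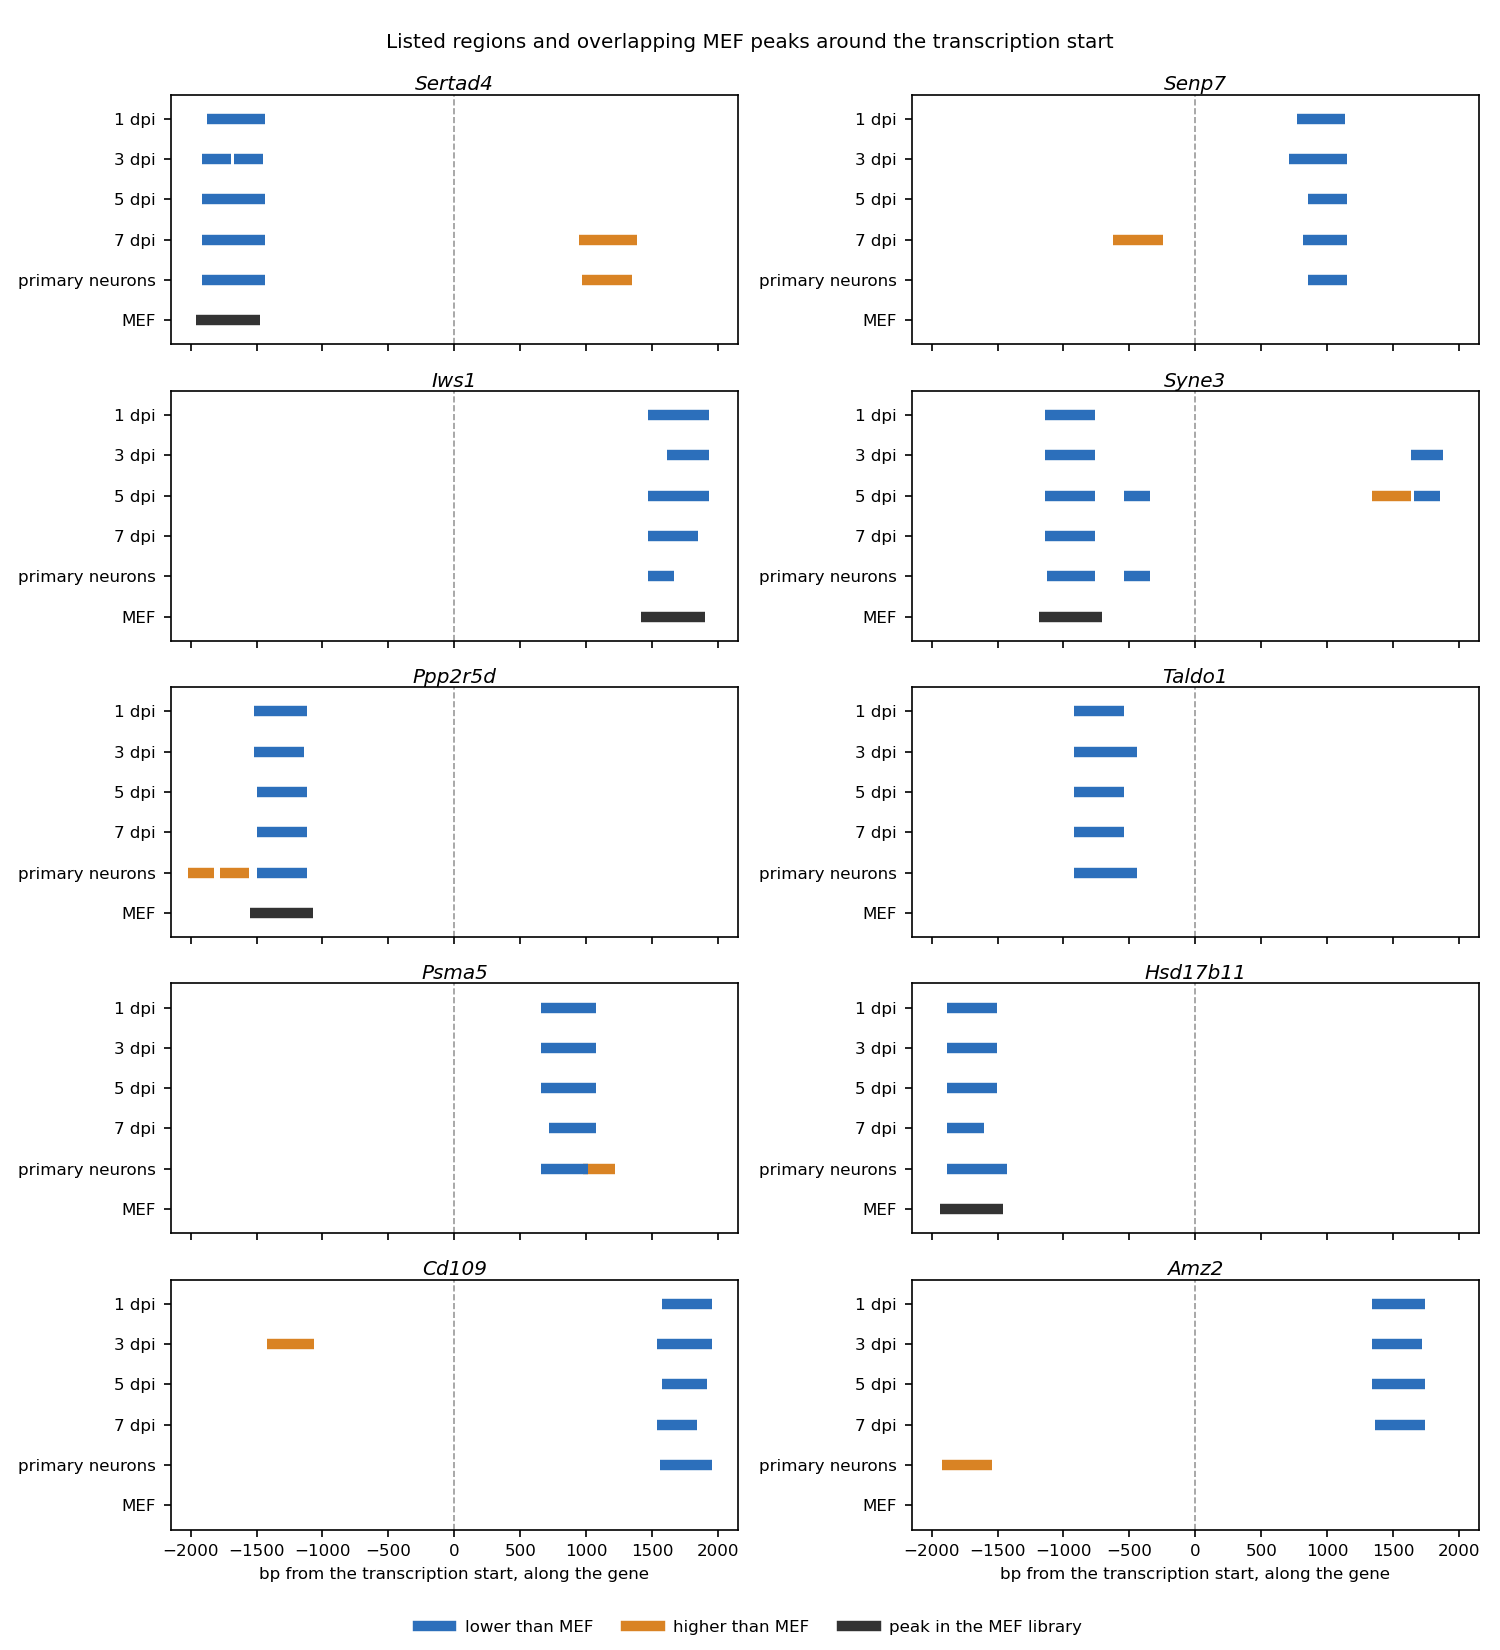
Listed regions of the 10 genes, 1 panel per gene and 1 row per comparison, with bp from the TSS on the horizontal axis along the direction of transcription; blue bars are lower than MEF, orange bars higher than MEF, and the black bar in the MEF row is a peak called in the MEF library. Blue bars of the main regions overlap in each gene, 5 genes have a MEF peak there, and none of these blue bars reaches the TSS. Syne3 has further blue bars elsewhere. The orange bar of Amz2 is placed from the TSS of another transcript than its blue bars.

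All 5 comparisons use a single set of MEF reads. Where 2 or more comparisons listed exactly the same borders, the MEF reads were the same in 3163 of 3163 windows over all genes, so each gene's MEF value is 1 measurement that was used 5 times. How the MEF count depended on the borders could be seen only where windows of a gene differed. At 6 of the genes, Psma5, Cd109, Senp7, Syne3, Taldo1 and Amz2, the MEF count was the same in every window whatever its length. Senp7 had 27 MEF reads in a window of 300 bp in 5 dpi iNs and 27 in the window of 440 bp that encloses it in 3 dpi iNs, so the added 140 bp contributed none. At Cd109 the 300 bp window of 7 dpi and the enclosing 420 bp window of 3 dpi both held 29. Of 28 pairs in which one window encloses another of the same gene, 20 added no MEF read. At Syne3 and Amz2 the enclosing windows added only 20 bp, so equal counts say little there on where the reads lie.

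At the other 4 genes some enclosing windows added MEF reads. Other pairs of these genes added none, over 40 bp at Sertad4, 20 bp at Ppp2r5d and 80 bp at Hsd17b11. Ppp2r5d gained 6 MEF reads from the 20 bp by which its 1 dpi window exceeds that of 3 dpi. Hsd17b11 gained 10 from the 100 bp between its windows of 7 dpi and 1 dpi. At Iws1 the 460 bp window held 15 more than the enclosed window of 3 dpi, and at Sertad4 the 480 bp window held 19 more than the enclosed 220 bp. How the authors assigned a read to a window is not stated in the labels or headers.

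**Figure D3:**
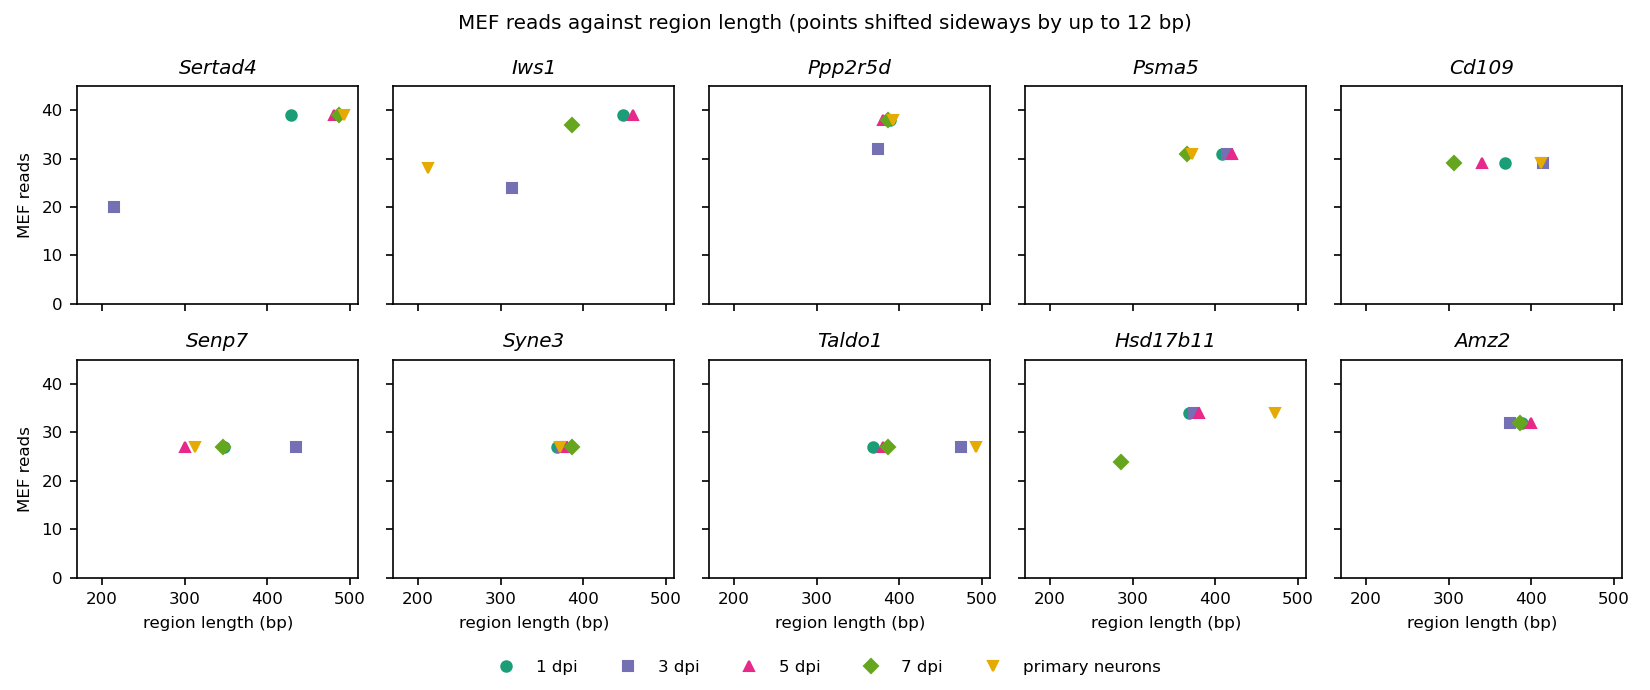
MEF reads in the main region (vertical axis, whole reads) against the length of the region in bp, 1 panel per gene and 1 symbol per comparison, with symbols shifted sideways by up to 12 bp. The points lie level in the panels of Psma5, Cd109, Senp7, Syne3, Taldo1 and Amz2, where the MEF count does not change with length.

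Per length, the MEF level was 5.63 to 7.11 reads per 100 bp at Taldo1, the lowest of the genes, 6.14 to 9 at Senp7, 6.90 to 9.67 at Cd109, 7.11 to 7.50 at Syne3, 7.38 to 8.61 at Psma5, 7.39 to 8.95 at Hsd17b11, 7.50 to 14.0 at Iws1, 8 to 8.42 at Amz2, 8.13 to 9.09 at Sertad4 and 8.42 to 10 at Ppp2r5d. These ranges carry no counting error, and where the MEF count is the same in every window they vary with window length alone. The 27 MEF reads of Taldo1 have a Poisson interval of 17.8 to 39.3, and the 32 of Amz2 one of 21.9 to 45.2. The ranges therefore give no ranking of the genes. Region borders fell on a 20 bp grid, the shortest region was 200 bp, and 380 bp was the commonest length. Of the 49 main regions 18 (36.7%) were exactly 380 bp long, against 25.1% of all 16721 lower regions and 44.4% of the 1447 lower regions with at least as many MEF reads as the lowest of these genes. Windows with the same borders in several comparisons are counted each time in these shares. Syne3 gives 4 of the 18, all from 1 window. Whether copies of single fragments add to the read counts of windows of 380 bp was not tested.

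These genes stand high in the lists by MEF reads. With at least 27 reads in MEF, they fell among the 1.51% of regions at or above that count in 1 dpi iNs, the 1.49% in 5 dpi iNs and the 1.43% in primary neurons. For 3 dpi, where the lowest had 20, the share was 7.86%, and for 7 dpi, with 24, it was 4.73%. The choice of the genes used these counts, so their rank is part of how they were found.

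**Figure D4:**
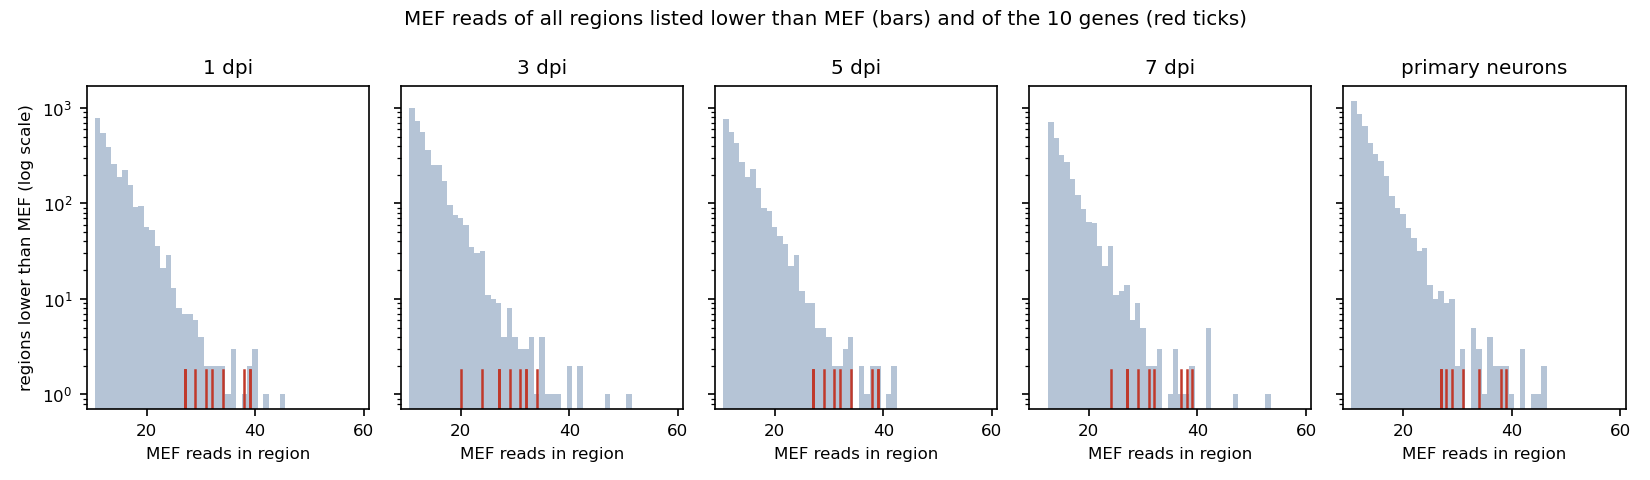
Number of regions listed lower than MEF (vertical axis, log scale) by their MEF reads (horizontal axis, whole reads), 1 panel per comparison, with red ticks at the values of the 10 genes; 6 regions above 60 reads are not drawn. The ticks lie at 20 to 39 reads, to the right of the bulk of regions at 11 to 20 reads.

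The authors called peaks in each library on its own, but in the same libraries whose reads chose the genes. The fold enrichment, the tag count at the summit and the score of a peak are the authors' values. In the MEF list 5 of the 10 genes had a promoter peak, against 0.195% of all genes, and each overlapped the lower region. These peaks were at Sertad4 (39 tags at the summit, 7.39-fold enrichment), Iws1 (39 tags, 5.66-fold), Ppp2r5d (40 tags, 7.58-fold), Syne3 (31 tags, 5.91-fold) and Hsd17b11 (34 tags, 6.47-fold). All 5 were 480 bp long, and they ranked between 210 and 1157 by enrichment among 2165 MEF peaks. The peaks come from the same MEF reads that chose the genes, so nothing is read from that count.

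In the neuronal lists no peak overlapped any of these regions. The genes were chosen for few neuronal reads there, so nothing is read from this absence. At 1, 3 and 5 dpi 0 of the 10 genes had a peak of any class, where 5.97%, 4.50% and 11.1% of all genes had one. At 7 dpi 4 of 10 did (Cd109, Senp7, Syne3 and Taldo1), against 29.2% of all genes, and in primary neurons 3 of 10 did (Iws1, Psma5 and Cd109), against 16.8%; none of these was of the promoter class, nor was any in iNs of 1, 3 or 5 dpi. Promoter peaks were assigned to 0.24% of all genes in 1 dpi iNs, 0.107% in 3 dpi iNs, 0.462% in 5 dpi iNs, 1.73% in 7 dpi iNs and 0.622% in primary neurons. The peak nearest to any of the regions, a 7 dpi peak assigned to Taldo1, stood 6100 bp from the Taldo1 region with 43 tags and 8.36-fold enrichment. The others were 12214 bp to 432584 bp away.

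Several of the genes also had windows that were higher than in MEF. No gene of the 10 had one in 1 dpi iNs (1.77% of all genes), 1 did in 3 dpi iNs (5.23%), 1 in 5 dpi iNs (3.85%), 2 in 7 dpi iNs (12.4%) and 4 in primary neurons (20.4%). Together 7 genes had such a region, and among the 9 genes lower in all 5 comparisons 6 did, against 401 of 1033 (38.8%) of all genes lower in all 5. Folds here are the neuronal library over MEF.

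At Sertad4 a region about 1.2 kb past the TSS held 20 reads in 7 dpi iNs and 24 reads in primary neurons, against 0 MEF reads in both comparisons, at least 8.89-fold and 7.47-fold higher. The lower region of the same gene, on the other side of the TSS, was 2380 bp from that of 7 dpi iNs. At Ppp2r5d 2 neighbouring windows held 12 and 15 reads in primary neurons, against 0 MEF reads, at least 3.73-fold and 4.67-fold higher; the nearer one began 40 bp from the closest lower region. At Senp7 a region centred 438 bp before the TSS held 10 reads in 7 dpi iNs, against 0 MEF reads, at least 4.44-fold higher. It overlapped the 5′ end of the Senp7 window printed above by 7 bp.

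Syne3 had 14 reads in 5 dpi iNs, against 0 MEF reads, in a window 1487 bp past the TSS, at least 4.67-fold higher. Directly beside it the tables list further Syne3 regions in the opposite direction, centred 1757 bp past the TSS, with 0 reads in 3 dpi iNs and 0 reads in 5 dpi iNs against 11 MEF reads each. The pair in 5 dpi iNs was 20 bp apart. A last Syne3 region 443 bp before the TSS had 0 reads in 5 dpi iNs and in primary neurons, against 11 MEF reads. Cd109 had 13 reads in 3 dpi iNs, against 0 MEF reads, 1245 bp before the TSS, at least 4.33-fold higher. For Amz2, 19 reads in primary neurons against 1 MEF read, a ratio of 17.7 (2.82 to 737), lay 1735 bp before a TSS. That TSS belongs to another Amz2 transcript than the one from which its lower regions are measured.

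At Psma5 the opposite directions met on the same bases. A window of 240 bp centred 1095 bp past the TSS held 17 reads in primary neurons against 1 MEF read, a ratio of 15.9 (2.49 to 663). It overlapped the lower regions of 1, 3, 5 and 7 dpi by 100 bp, and the lower region listed for primary neurons themselves by 40 bp. As counted, at most 1 of the 31 MEF reads of Psma5 can lie in this window, and none of the 17 reads of primary neurons in the 40 bp that their own 2 windows share.

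Genes related to the 10 by family, complex, pathway or process were looked up in lists of relatives: other SERTAD genes, elongation partners of Iws1, phosphatase 2A subunits, proteasome core subunits, SUMO genes and proteases, the alpha-2-macroglobulin and complement family, the LINC complex of the nuclear envelope, the pentose phosphate pathway, the HSD17B family and Amz1. Of these 78 genes 11, 12, 12, 6 and 12 were listed lower in iNs of 1, 3, 5 and 7 dpi and in primary neurons, which is 14.1%, 15.4%, 15.4%, 7.69% and 15.4%. The shares of all genes, given above, were 10.6%, 13.2%, 10.7%, 8.87% and 15.3%. Listed higher were 0, 3, 3, 12 and 12 of the 78, or 0%, 3.85%, 3.85%, 15.4% and 15.4%, where 1.77%, 5.23%, 3.85%, 12.4% and 20.4% of all genes were.

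The relatives with entries in 2 or more comparisons had 11 to 17 MEF reads where they were listed lower, below the 20 to 39 of the 10 genes, which were chosen with those counts in view. Psmb7, a beta subunit of the proteasome core, was listed lower in all 5 comparisons with 1 read in 1 dpi iNs and 0 reads in every other neuronal library, against 17 MEF reads. Psmb1 had 0 reads against 14 in iNs of 3, 5 and 7 dpi and in primary neurons, and Psma1 0 reads against 13 in iNs of 1, 3 and 5 dpi and in primary neurons. Psma1 also had a higher window in 7 dpi iNs, with 17 reads against 0 MEF reads, on the other side of its TSS. The SUMO proteases Senp2 (0 to 2 reads against 16) and Senp6 (0 reads against 13) were listed lower in all 5. Senp6 was in addition listed higher in 3 dpi iNs (14 reads against 0) and in primary neurons (17 against 0). Amz1, the paralog of Amz2, had 0 reads against 13 MEF reads in all 5 and a second lower window with 0 against 11 in 3 dpi iNs and in primary neurons, beside a higher window with 10 reads against 0 in 7 dpi iNs.

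The remaining relatives named here had entries in 2 to 5 comparisons. The catalytic phosphatase 2A subunit gene Ppp2ca and the B56 gene Ppp2r5c had 0 reads against 11 or 12 MEF reads in 3 comparisons each. Among the elongation factors, Tcea1 had 0 reads against 12 in iNs of 3 and 5 dpi and Cdc73 0 against 11 in iNs of 1 and 5 dpi, while Cdc73 had 13 reads against 1 in a higher window in 7 dpi iNs. Supt5 was listed higher, with 10 reads in 7 dpi iNs and 16 in primary neurons against 0. Complement C3 and the steroid dehydrogenase gene Hsd17b3 had 0 reads against 12 in iNs of 1, 3 and 5 dpi and in primary neurons. Hsd17b6 was listed higher in 3 dpi iNs (11 reads) and 7 dpi iNs (10 reads), against 0. Syne4, another nesprin gene, had 0 reads against 12 in 4 comparisons and higher windows in 5 dpi iNs (13 reads) and 7 dpi iNs (10 reads) against 0. Tktl2, a transketolase-like gene, had 13 reads against 0 in higher windows in iNs of 5 and 7 dpi. It also had lower windows with 0 reads against 15 in 7 dpi iNs and 1 read against 16 in primary neurons. The higher window of 5 dpi iNs overlapped both lower windows, so opposite directions met on the same bases at Tktl2 as well as at Psma5.

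The genes whose series was most like that of the 10 were found by the mean absolute difference, over the 5 comparisons, between log2((library reads + 1)/(MEF reads + 1)) and the median of the 10 genes. That median was -4.06, -4.52, -3.82, -4.81 and -4.81 in iNs of 1, 3, 5 and 7 dpi and in primary neurons. In primary neurons it rests on 9 genes, as Amz2 had no lower entry there. The search covered only the 1033 genes listed lower in all 5 comparisons. The nearest other gene was Olfr804, an olfactory receptor gene, at a mean difference of 0.18. It had 1, 0, 1 and 0 reads in iNs of 1, 3, 5 and 7 dpi and 0 reads in primary neurons, against 25 MEF reads in a 380 bp window with the same borders in all 5. Slbp, which encodes the protein that binds the hairpin of histone mRNA, followed at 0.21 with 0 reads in all 5 against 13 to 21. Gm11562, annotated as similar to a keratin associated protein, stood at 0.23, with 0 or 1 read against 25 or 27. Gng12, a G protein gamma subunit gene, stood at 0.25 and Ptprc, which encodes the leukocyte surface phosphatase CD45, also at 0.25, both with 0 or 1 read against 23 MEF reads. All 5 comparisons share the MEF library, which sets the common part of these series.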

How the data were processed

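Per the submitters' processing notes, bases were called with CASAVA and reads aligned with Bowtie2 2.1.0 to mm10; not given in the sources used here were the peak caller, the region test and the treatment of duplicate reads. The authors deposited 10 tables of promoter regions (lower or higher than MEF, 5 comparisons) and 6 peak lists, 1 per library. In the tables of 1, 3 and 5 dpi the values are whole read counts, as deposited. Those of 7 dpi and primary neurons hold a signal that the authors scaled, in which 1 read is worth 1.15 (MEF 0.866) and 0.966 (MEF 1.04); after division by these steps 100% of values up to 20 reads were whole within 0.1 read. The deposited log2 ratios, and the p-values and q-values beside them, are the authors'; 99.6% of listed regions have a p of at most 0.0001. The peak lists hold, per the file headers, a count of tags at each summit, a ratio of fold enrichment, and a q-value that the values show as −log10.

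Ratios, exact 95% intervals, overlaps of at least 1 bp, distances and CpG counts were computed in Python 3.11.15 with numpy 2.4.6, scipy 1.17.1 and pandas 2.3.3; lengths include both end bases. Background shares are over 26216 RefSeq genes, and 11399 of the 11454 genes of the tables matched them. No gene was tested. Interval and step calculations were tested on simulated data. The genes and the lists of relatives were chosen with earlier results of these data known. Named are the 10 genes, relatives with entries in 2 or more comparisons, and the 5 genes with the most similar profile.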

Additional observations from a re-analysis of the deposited data

Results flagged for a closer look

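At Psma5 a window listed higher in primary neurons overlapped windows of the same gene listed lower at 1, 3, 5 and 7 dpi, with 100 bp in common. The value in primary neurons was 16.42 on the authors' scale (17 reads), against 1 read in MEF. As counted, at most 1 of the 31 MEF reads of the lower windows can lie in the higher window. Primary neurons were themselves also listed lower at Psma5, with 0 reads against 31 MEF reads in a window of 360 bp. The lower windows thus had the same direction in iNs and in primary neurons. For the higher window no value is listed in iNs. No difference between the libraries was tested, and with 1 library per group it could not be.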

How the results depend on the processing

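The 147 alternative folds (whole reads without scaling, 1 read added to both libraries, reads per 100 bp) all kept the main direction, which the choice of the genes fixes; the last leaves a ratio as it is by construction. With 1 read added, 12 of the 27 folds with a neuronal read fell 1.93 to 1.95 times, all of them resting on 1 read. Leaving out regions of exactly 380 bp, an alternative chosen after seeing the data, left 6 of the 10 genes at 1 dpi and 5 at 7 dpi. Counting peaks of the promoter class alone, or those that overlap the region, gave 0 genes at 7 dpi and 0 in primary neurons. The lack of overlap follows from how the genes were chosen. Counting peaks within 10 kb gave 1 gene at 7 dpi and 0 in primary neurons. With p at most 1e-05, 1, 1, 1, 1 and 3 of the 78 relatives were lower in iNs of 1, 3, 5 and 7 dpi and in primary neurons, and 0, 1, 2 and 7 were higher in iNs of 3, 5 and 7 dpi and in primary neurons. The other 29 counts stayed within 1.5 times. CpG content of the listed regions was not run, as no genome was used here. No paired analysis was possible because each group has 1 library. With 0 to 6 reads per neuronal window, counting error limits every fold.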
